A study of Mus musculus with 3 samples.

Results

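The replication-dependent histone genes are the clustered genes that make the core histones H2A, H2B, H3 and H4 and the linker histone H1 for newly copied DNA. Members were taken by name: every gene whose GENCODE M21 symbol begins with Hist1h, Hist2h, Hist3h or Hist4h and that has a protein-coding transcript, pseudogenes left out. The rule found 67 of the 55536 Ensembl genes in the gene tables. They comprise 6 H1, 18 H2A, 18 H2B, 12 H3 and 13 H4 genes, of which 54 lie in the Hist1 cluster on chromosome 13, 10 in the Hist2 cluster on chromosome 3, 2 in the Hist3 group on chromosome 11 and 1 on chromosome 6.

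RNA was measured in 3 libraries of macrophages grown from the bone marrow of C57BL/6J mice, and all 3 libraries are biological replicates of 1 condition. The cells received Lipid A, the part of bacterial lipopolysaccharide that the receptor TLR4 binds, at 100 ng/ml for 12 h, were washed and left without it for 12 h, and received 100 ng/ml again for 50 min. Total RNA of the cytosol, depleted of ribosomal RNA, (1 µg per library) was sequenced as fragments that spanned 250 to 400 bases. With no untreated or otherwise treated group among these libraries, nothing below is an effect of Lipid A, and every comparison is between members, between members and other genes, or between replicates. The labels call the replicates biological but do not say how many animals or cultures they came from, so p-values measure only the spread between these 3 samples.

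Replication-dependent histone mRNAs are the only metazoan mRNAs known to end normally without a poly(A) tail. A cut made by the U7 small nuclear ribonucleoprotein and the CPSF nuclease leaves a conserved stem-loop close to the 3′ end, which the stem-loop binding protein SLBP holds during export, translation and decay. The genes are mostly transcribed in S phase, whereas variant histones such as H3.3 and H2A.Z come from single, polyadenylated genes that are active throughout the cell cycle. Some of the clustered genes are also known to give longer, polyadenylated transcripts in cells that have stopped dividing.

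The stem-loop was read from the annotated transcripts, since it is what sets these mRNAs apart from others. The motif searched was the 16-base histone stem-loop, on the transcript strand only and past the end of the coding sequence, with the letters of the sites below in all positions but 4 (4, 8, 10 and 13, counted from 1), where any base was allowed. It stood in 43 of the 67 members. Over whole coding transcripts, not only past the coding sequence, 51 of 21901 coding genes in the annotation (0.233%) held it. These 51 include the members with a match. The match began 21 to 58 bases past the coding sequence, with a median of 31 bases. By class it was found in 4 of 6 H1, 11 of 18 H2A, 9 of 18 H2B, 9 of 12 H3 and 10 of 13 H4 genes. Below are the sites of 7 well-expressed members with 5 bases on each side, 5′ to 3′ as DNA letters on the gene's own strand and in mm10 coordinates. Capitals mark the 16-base match.
Hist1h1c, chr13:23739507-23739532, plus strand: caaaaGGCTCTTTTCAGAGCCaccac
Hist2h2aa2, chr3:96239779-96239804, minus strand: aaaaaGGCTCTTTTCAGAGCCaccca
Hist3h2a, chr11:58955167-58955192, plus strand: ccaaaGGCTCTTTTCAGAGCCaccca
Hist1h2bg, chr13:23571838-23571863, plus strand: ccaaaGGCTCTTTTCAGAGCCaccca
Hist1h3c, chr13:23745042-23745067, minus strand: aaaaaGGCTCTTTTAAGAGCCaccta
Hist1h4d, chr13:23581945-23581970, plus strand: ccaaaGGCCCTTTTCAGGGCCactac
Hist1h4h, chr13:23531453-23531478, plus strand: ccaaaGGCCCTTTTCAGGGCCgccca

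The cores set the H4 genes apart from the other classes, which shared cores among themselves. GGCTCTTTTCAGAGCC was shared by 25 members, of which 3 were H1, 10 H2A, 7 H2B and 5 H3 genes, and by no H4 gene. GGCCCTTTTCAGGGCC was found in 7 members, all of them H4 genes. The other 3 H4 matches were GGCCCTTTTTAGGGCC in 2 genes and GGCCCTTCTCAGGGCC in 1 gene. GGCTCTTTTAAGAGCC was found in 6 members of the H1, H2B and H3 classes.

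The 24 members without a match were mostly members whose annotated transcript stops too early to contain one. In 17 members the annotation runs 0 to 2 bases past the coding sequence, and none of these 17 had the motif. In 24 members it runs 37 to 114 bases past the coding sequence. Of these 24, 21 had the motif, with 3 to 74 further annotated bases beyond it. In 26 members it runs 150 to 4931 bases past the coding sequence. Of these 26, 22 had the motif, with 108 to 4884 further annotated bases beyond it. Where a member has more than 1 coding transcript, the one with the higher mean TPM was used. These lengths enter every TPM value, because TPM divides reads by effective length. The effective length of the members averaged between 108 bases for the H4 gene Hist1h4k, whose transcript of 312 bases is only its coding sequence, and 7213 bases for the H1 gene Hist1h1d, whose annotation spans 7425 bases. For Hist1h1d, 137, 125 and 93.0 expected counts in replicates 1, 2 and 3 therefore came to 0.27, 0.17 and 0.18 TPM.

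Most members were detected, at low levels. Of the 67 members, 42 reached 1 TPM in all 3 replicates, where 41.2% of the 21951 protein-coding genes did so. By mean TPM, 6 members stood at 10 or more, 45 between 1 and 10 and 16 under 1. The median over members was 2.41 TPM, against 9.20 TPM over the expressed coding genes and 0.173 TPM over all coding genes. The 3 members with 0 counts in every library were Hist1h2ao, Hist1h2aa and Hist1h2ba. Hist1h2aa and Hist1h2ba are the testis types of H2A and H2B, and the testis H1 gene Hist1h1t had 1 count in replicate 1 and 0 in the others. A count of 0 allowed up to 0.0625, 0.0551 and 0.0561 CPM in replicates 1, 2 and 3, for counting error only. Hist1h2ao has the same coding sequence as Hist1h2ap, so its 0 cannot be told apart from an assignment of shared reads to Hist1h2ap.

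**Figure D1:**
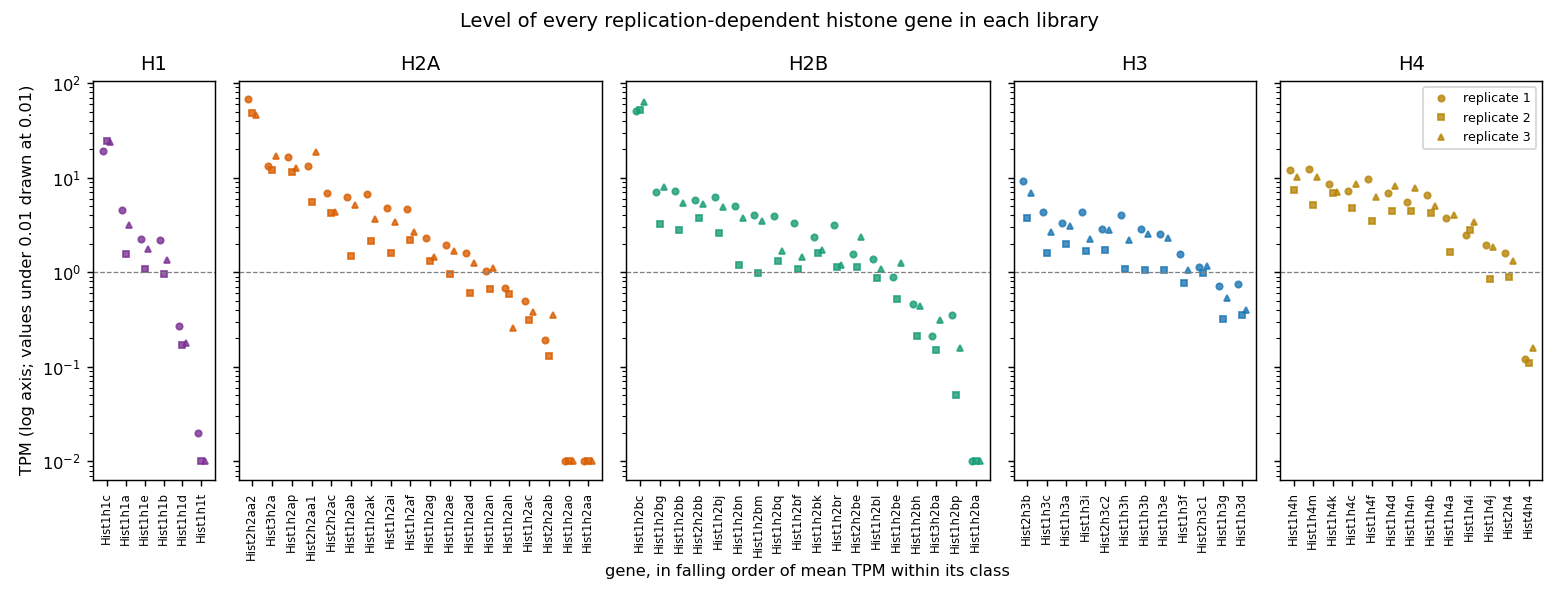
Level of each of the 67 members in TPM on a log axis, in panels by histone class, with 1 symbol per replicate and the dashed line at 1 TPM. A few genes stand above the rest in the H2A, H2B and H1 panels. They are led by Hist2h2aa2 (mean 53.9 TPM), Hist1h2bc (55.3 TPM) and Hist1h1c (22.5 TPM). In the H3 panel Hist2h3b (6.64 TPM) stands above Hist1h3c (2.88 TPM) and the others. The H4 genes decline more gradually from 9.90 TPM.

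The highest member was the H2B gene Hist1h2bc, with 50.7, 52.4 and 62.8 TPM in replicates 1, 2 and 3 (mean 55.3 ± 6.54, SD, n = 3). It exceeded 95.7% of protein-coding genes in mean TPM. Its only transcript here has 2 exons between 23684199 and 23692908 of chromosome 13 (mm10, plus strand), runs 742 bases past the coding sequence and holds no stem-loop match, so its reads are counted against a spliced form. The H2A gene Hist2h2aa2 was next, with 67.6, 47.8 and 46.4 TPM (mean 53.9 ± 11.9, SD, n = 3). These 2 genes do not differ beyond their spread, and they stand at more than 2 times the next.

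Next was the linker histone gene Hist1h1c (histone H1.2), with 19.1, 24.4 and 24.0 TPM. The H2A gene Hist3h2a followed with 13.4, 12.2 and 17.0 TPM, then the H2A genes Hist1h2ap with 16.4, 11.4 and 12.6 TPM and Hist2h2aa1 with 13.4, 5.56 and 18.6 TPM. The last 3 overlapped in their values, so their order is not set. These 6 highest members held 50.8% of the summed mean TPM of all members.

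Reads, which are not per length, were more concentrated than TPM. Hist1h2bc, Hist1h1c and Hist3h2a together took 46.8, 62.4 and 54.8% of all members' expected counts in replicates 1, 2 and 3. In all, members took 15011, 17227 and 16025 expected counts, out of 47972062, 54409436 and 53491957 counts on genes.

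Within classes the pattern differed. The H1 total was mostly Hist1h1c: the next gene, Hist1h1a, had 4.51, 1.56 and 3.17 TPM, and Hist1h1e had 2.24, 1.09 and 1.77 TPM. The H2B total was likewise led by Hist1h2bc, with Hist1h2bg next at 7.07, 3.20 and 8.05 TPM and Hist1h2bb after it at 7.19, 2.78 and 5.39 TPM. No gene made up most of the H3 or H4 total. The highest H3 gene was Hist2h3b, with 9.28, 3.78 and 6.87 TPM, followed by Hist1h3c with 4.36, 1.61 and 2.66 TPM and Hist1h3a with 3.35, 1.99 and 3.06 TPM. The highest H4 genes were Hist1h4h with 12.2, 7.43 and 10.1 TPM, Hist1h4m with 12.4, 5.19 and 10.3 TPM and Hist1h4k with 8.62, 6.86 and 7.07 TPM. Hist1h4k rests on an effective length of only 108 bases and 64.1 counts on average.

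The lowest detected members were Hist1h1t (H1), Hist2h2ab (H2A, mean 0.223 TPM), Hist1h2bp (H2B, 0.187 TPM), Hist1h3d (H3, 0.503 TPM) and Hist4h4 (H4, 0.130 TPM), the last being the 1 member on chromosome 6. On either side of 1 TPM stood Hist2h3c1, at 1.13, 0.99 and 1.17 TPM, and Hist1h2an, at 1.03, 0.66 and 1.10 TPM.

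Many H2A and H2B genes sit head to head and are transcribed away from a shared interval. Counting starts less than 1000 bases apart, 13 head-to-head pairs of members were found, 176 to 660 bases apart. The pair 660 bases apart joined the H3 gene Hist1h3f and the H2B gene Hist1h2bh, and the others joined an H2A and an H2B gene. Of the 11 pairs in which both genes had reads, 2 lay within 2-fold of each other in mean TPM, and the median ratio of the higher to the lower gene was 3.08. The pair Hist1h2bc and Hist1h2ac was the most unequal, at 55.3 TPM for Hist1h2bc and 0.397 TPM for Hist1h2ac, a ratio of 139. That ratio was 101, 169 and 165 in replicates 1, 2 and 3. Hist1h2ac is annotated with a transcript of 2482 bases, which lowers its TPM, and its ratio in CPM, which ignores length, was 59.1. Hist1h2ap stood 7.31-fold above its partner Hist1h2br in TPM. However, Hist1h2br shares its coding sequence with Hist1h2bq, and Hist1h2ap shares its own with Hist1h2ao, which had 0 counts. Hist1h2ao and Hist1h2bq form another of the 13 pairs, so the ratio cannot be given to this pair alone. In the pair Hist2h2ac and Hist2h2be the order turned with the scale: Hist2h2ac was 3.08-fold higher in TPM and 0.400 times Hist2h2be in CPM.

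The promoters of 61 members were found in RefSeq (GRCm38.p6), as 250 bases before and 50 bases after the RefSeq start nearest the GENCODE gene start. The 2 starts lay within 50 bases of each other in 51 of the 61, and 1770 bases apart for Hist1h1d. TATAAA on the gene's strand stood in 30 of the 61 (49.2%), against 8.32% of all 32851 promoters of the same length. CCAAT on either strand stood in 52 of 61 (85.2%), against 37.4% of all promoters. The octamer ATTTGCAT on either strand stood in 13 of 61 (21.3%), against 1.74%. Matches to different motifs may share letters. The windows of head-to-head genes can overlap, so a CCAAT or octamer site can count for both genes. The same octamer site counted for Hist1h2bg and Hist1h2ae, for Hist1h2bk and Hist1h2ah, and for Hist1h2ba and Hist1h2aa.

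The motifs followed class. All 49 matched H1, H2A, H2B and H3 promoters held CCAAT, but only 3 of the 12 H4 promoters did. The octamer was found in 7 of 17 H2A and 6 of 16 H2B promoters and in no H1, H3 or H4 promoter. These counts describe letters in a window and say nothing of binding.

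3 promoters are shown, 5′ to 3′ on the gene's strand, with matches to these 3 motifs in capitals, whichever strand the match is on. That of Hist1h2ac holds all 3 motifs and spans the interval it shares with Hist1h2bc, the most unequal pair. Hist3h2a is a highly expressed gene outside the 13 pairs, and Hist1h4h is the highest H4 gene, with none of the 3 motifs.
Hist1h2ac, chr13:23683910-23684209, minus strand: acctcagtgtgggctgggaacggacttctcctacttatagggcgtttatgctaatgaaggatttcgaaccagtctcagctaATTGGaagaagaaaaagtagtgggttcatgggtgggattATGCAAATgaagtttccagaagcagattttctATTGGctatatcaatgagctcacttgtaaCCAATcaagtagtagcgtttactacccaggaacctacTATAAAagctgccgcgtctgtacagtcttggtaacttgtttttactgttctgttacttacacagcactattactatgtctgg
Hist3h2a, chr11:58954435-58954734, plus strand: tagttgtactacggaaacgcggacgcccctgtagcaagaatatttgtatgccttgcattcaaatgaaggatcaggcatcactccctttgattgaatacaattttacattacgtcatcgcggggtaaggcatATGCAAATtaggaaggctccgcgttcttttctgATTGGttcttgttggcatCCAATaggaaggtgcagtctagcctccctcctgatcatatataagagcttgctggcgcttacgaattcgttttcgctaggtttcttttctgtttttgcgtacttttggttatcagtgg
Hist1h4h, chr13:23530794-23531093, plus strand: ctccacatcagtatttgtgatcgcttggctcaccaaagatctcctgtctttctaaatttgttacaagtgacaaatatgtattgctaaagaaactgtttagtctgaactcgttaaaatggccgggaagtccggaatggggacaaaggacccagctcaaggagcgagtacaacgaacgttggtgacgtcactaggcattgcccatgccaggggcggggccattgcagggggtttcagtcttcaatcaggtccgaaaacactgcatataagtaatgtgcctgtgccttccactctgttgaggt

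The replicates differed in these genes in a common direction. In CPM, counts per 1000000 with library sizes scaled by TMM (edgeR's trimmed mean of M-values), 51 of the 59 members with a mean count of at least 10 were higher in replicate 1 than in replicate 2, where 51.0% of all 13827 such genes were. Replicate 1 also exceeded replicate 3 in 44 of the 59 (51.1% of all genes), and replicate 3 exceeded replicate 2 in 42 (48.5% of all genes). As a result 43 members were highest in replicate 1 (34.4% of all genes) and 40 were lowest in replicate 2 (30.9% of all genes). The full order, replicate 1 over 3 over 2, was seen in 32 members, where 14.3% of all genes showed it. Another 11 members had the order 1 over 2 over 3 (20.1% of all genes), and 10 were highest in replicate 3 (34.2% of all genes). Low-count genes shared the lean to a high replicate 1 but not to a low replicate 2. Among the 1463 genes with a mean count between the members' quartiles of 45.3 and 140.5, 45.3% were highest in replicate 1. Of these genes, 28.2% were lowest in replicate 2 (30.9% of all genes) and 48.5% were lowest in replicate 3 (36.8% of all genes).

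Whether each gene varied beyond counting error was tested with a Poisson heterogeneity chi-square over the 3 libraries, adjusted by Benjamini-Hochberg over all 13827 genes. Of the 59 members tested, 43 passed an adjusted p of 0.05 (72.9%), while 70.0% of all tested genes and 58.0% of the genes in the same count range did. Passing the test therefore does not set members apart from other genes. Without replicate 1 the count was 22 members of 59, and without replicate 2 it was 27 of 59, with 53.8% and 52.8% of all genes called. The biological coefficient of variation from edgeR had a median of 0.327 over the tested members, 0.164 over all tested genes and 0.325 over genes in the members' count range. These values are drawn by edgeR towards a trend with abundance, so genes of like counts come out alike partly by construction. The median ratio of the highest to the lowest replicate was 1.67 over members, 1.27 over all genes and 1.56 over genes in that count range.

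The 5 members past the test whose highest replicate most exceeded their lowest were all highest in replicate 1 and lowest in replicate 2. The H2B gene Hist1h2bn had 1.17, 0.374 and 0.949 CPM in replicates 1, 2 and 3, a ratio of 3.12 (adjusted p = 4.5e-05, heterogeneity test). The H2A gene Hist1h2ab had 2.24, 0.721 and 1.91 CPM, a ratio of 3.11 (adjusted p = 2.4e-09, heterogeneity test). These rest on at most 58.5 counts in a library for Hist1h2bn and 112 for Hist1h2ab. Hist1h2bm (H2B), Hist1h3h (H3) and Hist1h2bq (H2B) had ratios of 3.01, 2.74 and 2.55. Hist1h2bq shares its coding sequence with Hist1h2br, and the pair summed to 2.63, 1.10 and 1.35 CPM in replicates 1, 2 and 3.

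The 3 genes that carry most of the reads did not follow that order. Hist1h2bc had 67.4, 92.2 and 81.7 CPM in replicates 1, 2 and 3 and was lowest in replicate 1 (adjusted p = 3.6e-43, heterogeneity test). Hist1h1c had 36.4, 61.5 and 44.4 CPM, again lowest in replicate 1 and highest in replicate 2 (adjusted p = 1.3e-78, heterogeneity test). Hist3h2a had 36.5, 44.1 and 44.96 CPM, lowest in replicate 1 though not in TPM (adjusted p = 1.9e-11, heterogeneity test). Chosen after their values were seen, these 3 summed to 140, 198 and 171 CPM, whereas the other 64 members summed to 159, 119 and 141 CPM. Because the opposite orders offset each other, the sum over all members was 299, 317 and 312 CPM and hid both.

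**Figure D2:**
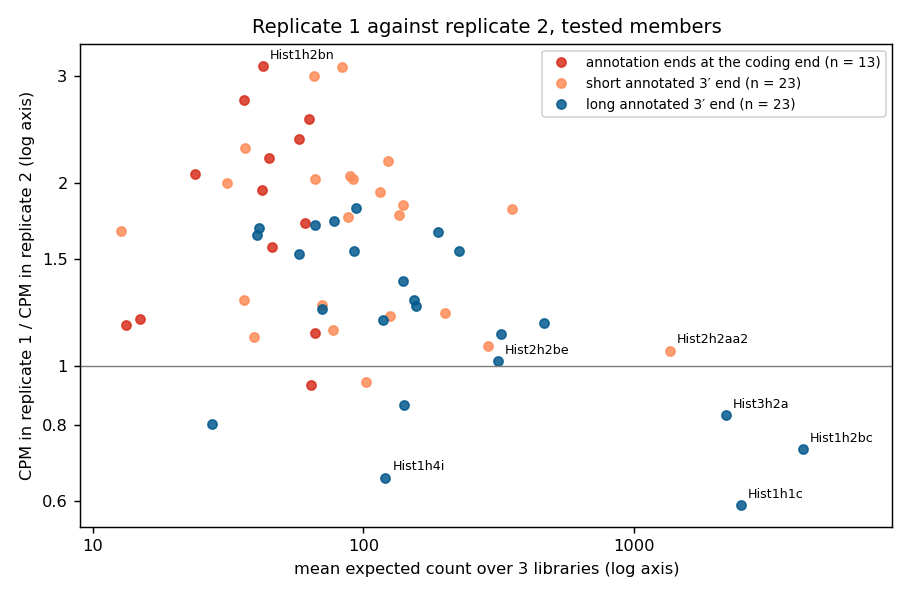
CPM in replicate 1 divided by CPM in replicate 2 for each of the 59 tested members (log axis) against its mean expected count (log axis), coloured by annotated 3′ end, with the grey line at equality. 51 members lie above the line, and the 3 genes with the highest counts, Hist1h2bc, Hist1h1c and Hist3h2a, lie below it.

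Members were also grouped by annotated 3′ end. Where the annotation ends at the coding sequence, 11 of 13 tested members were highest in replicate 1. Where the 3′ end is short 21 of 23 were, and where it is long 11 of 23 were (47.8%). The share was 34.4% of all genes and 45.3% of those in the members' count range. Of the 23 with a long 3′ end, 17 were higher in replicate 1 than in replicate 2 (51.0% of all genes) and 14 were lowest in replicate 2 (30.9% of all genes). Summed over all members of each kind, the genes ending at the coding sequence had 15.1, 8.68 and 10.4 CPM in replicates 1, 2 and 3, and those with a short 3′ end had 84.3, 62.7 and 69.0 CPM. The genes with a long 3′ end had 200, 246 and 233 CPM, of which Hist1h2bc, Hist1h1c and Hist3h2a, picked out after their values were seen, gave 140, 198 and 171 CPM. The other 23 long-ended genes had 59.7, 48.0 and 61.9 CPM, lowest in replicate 2 as were the sums of the other kinds. The 95% Poisson intervals of replicates 1 and 2 did not overlap in any of the 3 sums: 14.1 to 16.2 against 7.91 to 9.50 CPM, 81.8 to 86.9 against 60.6 to 64.9 CPM, and 196 to 204 against 242 to 250 CPM. They cover counting error only, and 1 library each is no test of a difference between the kinds.

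**Figure D3:**
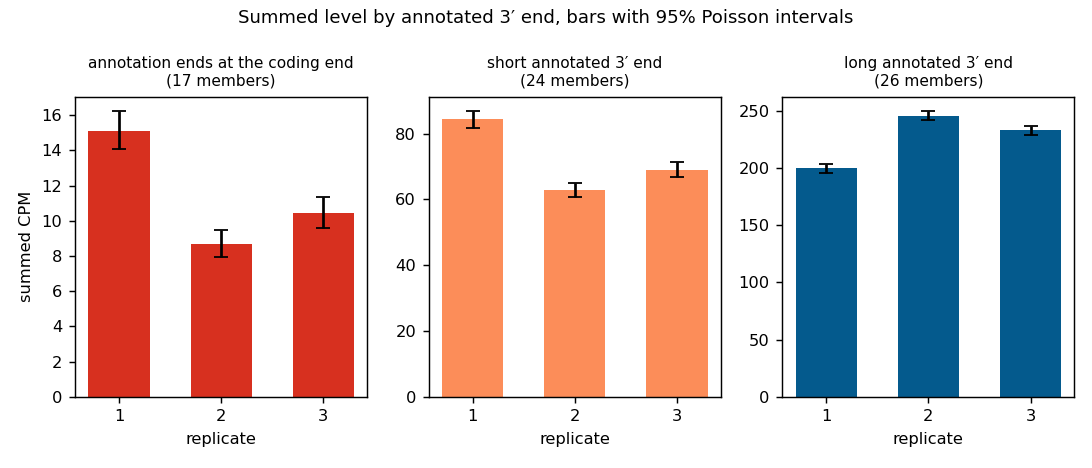
Summed CPM of the members in each replicate, in 3 panels by annotated 3′ end with their own linear axes from 0, and error bars for 95% Poisson intervals (counting error only). The first 2 panels are highest in replicate 1, at 15.1 and 84.3 CPM, and the last is lowest there, at 200 CPM, of which Hist1h2bc, Hist1h1c and Hist3h2a make up 140 CPM. Without those 3 genes it would stand at 59.7, 48.0 and 61.9 CPM.

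By class, H3 was the most one-sided, with 11 of 12 genes highest in replicate 1. That was so for 34.4% of all genes and 45.3% of those in the members' count range. The H3 class summed to 23.3, 15.3 and 18.5 CPM in replicates 1, 2 and 3. In H4, 6 of 13 genes (46.2%) were highest in replicate 1, near the share in that count range. The H4 sums were 38.2, 31.6 and 39.6 CPM. Of the H1, H2A and H2B genes, 4 of 5, 11 of 14 and 11 of 15 were highest in replicate 1. In H1 the sum went the other way, with 49.5, 69.8 and 53.7 CPM, since Hist1h1c makes up most of it. The H4 gene Hist1h4i, at 1.77, 2.71 and 2.44 CPM, was one of the 6 members highest in replicate 2, where 31.4% of all genes and 29.9% of those in the members' count range were highest.

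Other RNAs moved between the replicates too. The 5 listed nuclear-retained RNAs, Malat1 and Neat1 among them, were all highest in replicate 1 and lowest in replicate 3, and summed to 11236, 5409 and 1989 CPM in replicates 1, 2 and 3. The largest share of members put replicate 2 lowest instead. Mki67, a marker of cycling cells, had 234, 87.6 and 157 CPM, and Ccna2, the cyclin of S phase and G2, had 3.19, 1.91 and 2.59 CPM, both in the order of most members. The replicative helicase genes ran differently, with Mcm2 at 15.6, 21.9 and 14.7 CPM and Mcm5 at 14.2, 21.4 and 11.5 CPM, highest in replicate 2. Mki67 and Ccna2 were named with their values known. Of the 24 listed DNA replication and cell cycle genes, 9 were highest in replicate 1 (34.4% of all genes), 12 in replicate 2 (31.4% of all genes), and 17 were lowest in replicate 3 (36.8% of all genes). The order of most members was seen in 3 of the 24 (14.3% of all genes). The part of nuclear RNA or of cycling cells in the members' order was not tested, and fewer cycling cells and less histone mRNA per cell cannot be told apart in bulk RNA.

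The replication-independent histone genes were higher. Of 11 listed, 8 reached 1 TPM in all replicates, and their median was 9.19 TPM. The 12 replication-dependent H3 genes together had 37.8, 16.4 and 27.8 TPM in replicates 1, 2 and 3, against 626, 444 and 638 TPM for H3f3a and H3f3b, the pair that makes H3.3. The H3.3 sum was thus 16.6, 27.1 and 22.9 times the replication-dependent sum, and this within-library ratio is free of the difference in TPM scale between replicates. For H2A the sums were closer: the 18 replication-dependent genes had 148, 93.1 and 120 TPM, and the 6 listed H2A variant genes 116, 86.6 and 111 TPM. In CPM, which ignores length, the order turned, with 93.5, 90.3 and 90.9 CPM for the replication-dependent genes and 172, 178 and 167 CPM for the variants. Among the variants, H2afz, the main H2A.Z gene, had 52.1, 33.6 and 45.7 TPM and H2afy, which makes macroH2A, 42.5, 34.0 and 40.9 TPM. The linker histone gene H1f0, typical of resting cells, had 18.7, 17.2 and 26.1 TPM, close to Hist1h1c. TPM as a scale stood lower in replicate 2, where the median expressed coding gene had 7.29 TPM, against 9.78 and 10.3 TPM in replicates 1 and 3, so replicates were compared in CPM above. Relative to a total of 1000000 TPM on coding genes, members summed to 1192, 997 and 967 in replicates 1, 2 and 3.

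**Figure D4:**
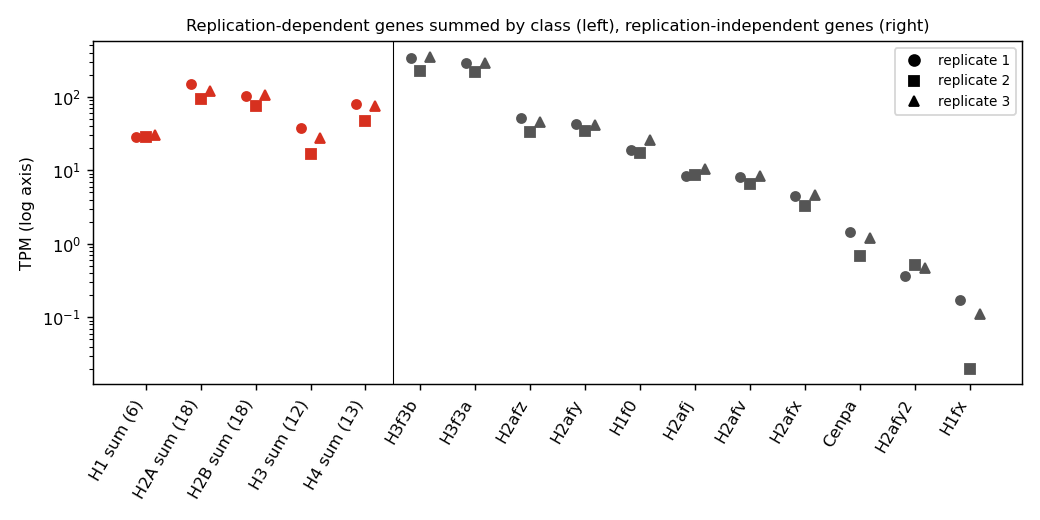
TPM on a log axis in each replicate for the replication-dependent genes summed by class (red, left, with the number of genes in each) and for 11 replication-independent histone genes (grey, right). The H3.3 genes H3f3b and H3f3a stand far above the summed H3 genes. The summed H2A genes stand near the sum of their 6 variants, which is not drawn.

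Genes for handling histone mRNA and protein were mostly expressed. Of the 16 listed genes for 3′-end processing and decay, 13 reached 1 TPM in all replicates, with a median of 6.76 TPM. Slbp, the stem-loop binding protein, had 8.70, 7.40 and 9.09 TPM, and Npat, the activator of histone gene transcription, had 2.50, 1.96 and 2.32 TPM. Eri1, the exonuclease that trims and degrades histone mRNA, had 5.99, 4.19 and 5.21 TPM. Tut7, a uridyl transferase in histone mRNA decay, was the highest of the list at 40.2, 31.0 and 47.3 TPM. The U7 RNA gene Rnu7 was listed at 0 in all 3 libraries, of RNA in fragments of 250 to 400 bases. All 20 listed histone chaperone and assembly genes were expressed, among them Nasp, a carrier of H3 and H4, at 6.88, 4.86 and 8.77 TPM.

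Neither list shared the members' order: 2 of 15 tested processing genes and 2 of 20 chaperone genes were highest in replicate 1 (34.4% of all genes). The DNA replication list had a median of 2.36 TPM, close to the members' median of 2.41 TPM, and 18 of its 24 genes reached 1 TPM in all replicates.

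Macrophage markers were all present, from 38.0 TPM for Itgam to 3417 TPM for Lyz2. Of the markers of other cells, Ly6g and Cd3g had 0 counts in all 3 libraries, and no listed B cell, mast cell or stromal gene reached 1 TPM in all replicates. The neutrophil genes S100a8, at 3.79, 4.16 and 3.44 TPM, and S100a9, at 5.85, 6.18 and 4.19 TPM, did, as did Ccr7 at 1.13, 1.00 and 1.23 TPM. Cd4, Csf3r and Pf4 stood above 10 TPM. The part of other cells in the members' levels was not tested.

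The near-identity of members limits how far reads can be given to 1 gene. Of 57 members compared over coding sequences of equal length within a class, 8 had an exact copy in another member, and the median identity to the nearest relative was 98.7%. The exact pairs were Hist1h2ao with Hist1h2ap, Hist1h2bq with Hist1h2br, Hist1h4m with Hist1h4n, and Hist2h2aa1 with Hist2h2aa2. The posterior SD that the authors deposited for each count exceeded 0.25 of the count in 6 members, in at least 1 library. It reached 0.894 of the count for Hist1h2br and 0.992 for Hist1h2ah, and lay between 0.263 and 0.338 for Hist1h2bp, Hist1h2bq, Hist1h2an and Hist2h2ab. For Hist1h2bc, Hist1h1c and Hist3h2a it was at most 0.0022 of the count.

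Hist2h2aa1 and Hist2h2aa2 show the limit. Alone, Hist2h2aa1 had 6.97, 3.85 and 9.80 CPM and Hist2h2aa2 had 29.6, 27.9 and 20.8 CPM, highest in different replicates. Their sum, which does not depend on how shared reads were split between them, was 36.5, 31.7 and 30.6 CPM, highest in replicate 1.

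A second deposited transcript table gave mostly like counts. Over the 64 members with reads, Pearson's r between log2 counts of the tables was 0.886, across genes that share the same libraries, and 53 members lay within 1.5 times. Of the 11 members outside that range, 10 were higher in the second tables, and 8 were genes whose annotation ends at the coding sequence, among them Hist1h4k at 1.96 times and Hist1h2bn at 1.66 times. The 1 lower there was the H3 gene Hist2h3c1, with 129, 162 and 132 counts in the gene tables and 0 in the second tables. It lies within the noncoding gene Gm20634 on the same strand, which had 598, 715 and 819 counts in the gene tables. Its level is therefore uncertain. Hist1h2ah had 9.04, 11.4 and 3.78 counts in the gene tables and 3.46 times as many on average in the second tables.

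**Figure D5:**
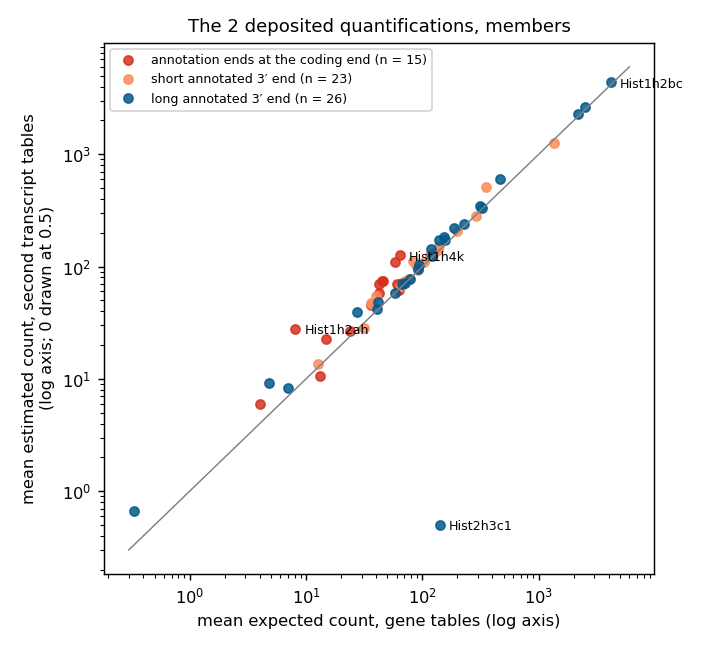
Mean count of each of the 64 members with reads in the gene tables (log axis) against that in the second transcript tables (log axis, 0 drawn at 0.5), coloured by annotated 3′ end, with the grey line at equality. Most members lie near the line, and Hist2h3c1 lies at 0 in the second tables.

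Overlapping genes touch 24 of the 67 members, 7 of them on the same strand. In 13 members the only overlap is an antisense miRNA entry, and no overlapping miRNA entry had more than 15.95 counts in a library. Hist3h2a lies within Trim17 on the same strand, which had 25.7, 22.0 and 28.1 counts, against 1831, 2393 and 2306 counts for Hist3h2a. Hist1h2be and Hist1h1e share 496 bases on the same strand. Hist2h2aa1 shares 529 of its 586 bases with Gm20634 on the same strand, whose 598, 715 and 819 counts exceed the 349, 209 and 503 counts of Hist2h2aa1, so its level is uncertain too. It also overlaps the antisense gene Gm20633, which had 110, 87.1 and 84.9 counts, and Hist2h2aa2 overlaps the antisense gene Gm20632, which had 169, 147 and 170 counts. Hist2h3b and Hist2h2bb both overlap the antisense gene Gm20628, which had 114, 103 and 133 counts. Without a stated strand setting, reads of antisense pairs cannot be told apart.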

How the data were processed

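Cytosolic RNA of 3 libraries was quantified by the authors against mm10 and GENCODE M21, per notes deposited with the files. Neither the quantifier and its version nor the strand setting is given in the sources used here. The expected count per gene is an estimate that need not be whole, and the authors deposited it unnormalised. TPM was deposited by the authors over every indexed feature. The posterior SD of each count is a score in the deposited gene tables. A second transcript table, in the layout kallisto writes, holds estimated counts and TPM deposited by the authors. PhiX took 0.0785%, 0.0520% and 0.0251% of counts in replicates 1, 2 and 3 and was left out with all entries that name no gene.

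Counts were rounded and scaled by TMM (edgeR 4.0.16, R 4.3.3). DESeq2 1.42.0 gave the alternative size factors, and Python 3.11.15 with pandas 2.3.3 and SciPy 1.17.1 the rest. Heterogeneity between replicates was tested by a Poisson chi-square with 2 degrees of freedom where the mean count reached 10, adjusted by Benjamini-Hochberg at 0.05. The test was checked on simulated Poisson counts only, so that check does not cover biological spread or reads shared between genes. Poisson intervals are exact at 95%. Promoters came from RefSeq, stem-loops from the annotation's transcripts. Zcchc6 and Zcchc11 were matched as Tut7 and Tut4. Members with a mean TPM of at least 1, the 3 highest and the lowest detected of each class, the 5 most variable past the test and those with a posterior SD over 0.25 of the count could be named, and any other gene was picked with its values known. The members and lists were chosen with earlier results of these data known.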

Additional observations from a re-analysis of the deposited data

How the results depend on the processing

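Depth limits the single members more than their sums, since the median tested member had 83.0 counts. Counts of members at a TPM of at least 1 depended on the scale: 42 passed in every replicate, 9 at a minimum of 5 TPM and 21 in the second transcript tables, whose TPM of the median expressed coding gene was 0.430 times that in the gene tables. The summed level of members was 338 ± 70.5 TPM (SD, n = 3), 142 TPM in the second tables and 1052 on the scale of coding genes alone, and the mean of the replicate medians was 2.33 TPM, against 1.03 TPM in the second tables. The 10 highest members held 62.0% of the summed TPM and 75.4% of expected counts. The heterogeneity test called 43 members, 21 of 24 tested (87.5%) at a mean count of at least 100, where 76.9% of all genes were called. Leaving out 1 replicate gave 22 to 34 members, the highest being 34 of 60 without replicate 3 (49.8% of all genes). With all replicates and the posterior SD added to the variance, 36 of 59 members (61%) were called, against 68% of all genes. Under other size factors, TPM, rescaled TPM and the second tables, 40 to 45 members were highest in replicate 1, where 30.6 to 46.3% of all genes were. Replicate 2 was lowest in 55 members in TPM, as in 80.0% of all genes, and in 32 on rescaled TPM (31.6% of all genes). No paired analysis was possible because the labels give 1 group.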
